A study of Homo sapiens with 16 samples.

Results

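The genes described here are 151 autosomal genes that the human melanoma cell line A101D expressed and that the melanoma line MeWo barely expressed. They were selected on their measured levels in both lines: a gene was taken when its mean in A101D was 5 CPM or more (the count of a gene scaled to the total count of its library) and its mean in MeWo was under 0.5% of that. Genes whose symbols begin with HLA-, HOX, COL, MAGE or CDH, and WNT5A, were left out by the rule, which removed 18 genes. The 151 genes are 1.36% of the 11068 autosomal genes at that floor in A101D, out of 60676 gene identifiers in the tables. The same rule with the lines exchanged took 50 genes. Because the contrast between the lines chose the genes, their levels in A101D and MeWo are given as a description, with no test.

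Total RNA was profiled in 8 libraries of A101D and 8 of MeWo, both labelled melanoma. The genotype label of A101D is methionine dependence and that of MeWo methionine independence. Both lines were grown in a defined medium with dialysed serum and added glutamine, pyruvate and cystine. Methionine for a control medium, or homocysteine in its place, was added to that base according to the protocol, and neither the labels nor the column headers say which library had which. The libraries are therefore compared only by line and by replicate number, and the comparison within A101D is between replicates 1 to 4 and replicates 5 to 8. The labels name no difference between these replicate numbers and do not say whether libraries came from separate cultures. That split was chosen with earlier results of these data known, so its p-values are a description and name no treatment. They set the difference between the sets of libraries against the spread within each set.

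Total counts ran from 28910881 to 38961862 per library. All 8 markers of the melanocyte lineage were at 1 CPM or more in both lines, and their sum ranged over 2690 to 3360 CPM in the A101D libraries, against 8270 to 9080 CPM in those of MeWo. Most of the MeWo sum was PMEL (mean 6610 CPM, against 224 CPM in A101D). DCT (1500 CPM in A101D, 501 CPM in MeWo) and S100B (611 and 131 CPM) were higher in A101D. The other markers were higher in MeWo, and TYR was only 1.53 CPM in A101D, against 297 CPM. MeWo replicate 2 stood apart: it had a count for 105 of the 151 genes, against 62 to 73 in the other MeWo libraries. This was not particular to these genes, since over all genes it had a count for 34471, against 30066 to 31433 in the others. Without it the rule took 154 genes, 150 of them shared with the 151. In bulk RNA, fewer cells expressing a gene and less RNA per cell cannot be told apart.

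Cell lines from the same tumour type can differ in which genes are on, and DNA methylation and chromatin marks are known ways in which promoters stay off through many divisions. Melanoma lines also differ in state, and cultured melanoma cells are known to express genes of other lineages, including neural, germ cell and blood cell genes. The 151 genes covered all of these kinds. By roles assigned by hand after the genes were known, 22 encode receptors, channels or transporters, 16 secreted or matrix proteins, 14 regulators of transcription, chromatin or RNA, 13 immune signalling proteins, 12 proteins of adhesion and nerve contact, 11 enzymes, 8 germ cell gene products and 3 histones. A further 27 are noncoding RNAs, 10 are pseudogenes and 15 are other protein-coding genes.

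The level of the 151 genes in A101D had a median of 20.2 CPM. It was under 10 CPM for 39 genes, from 10 to 50 CPM for 82, from 50 to 100 CPM for 24, and above that for 6. The highest was MGAM, maltase-glucoamylase, a starch-digesting enzyme of the intestinal brush border, at 1243 ± 276 CPM (SD, n = 8). It was followed by SFRP1, a secreted WNT antagonist, at 248.8 ± 7.40 CPM, and CCL2, a chemokine that attracts monocytes, at 177.9 ± 45.8 CPM. Next came PLA1A, a phospholipase, at 115.6 ± 7.37 CPM, ADAMTS4, a protease that cuts aggrecan, at 103.5 ± 32.6 CPM, and ZBED10P at 100.9 ± 45.2 CPM. These SDs pool replicates 1 to 4 with 5 to 8, between which MGAM, CCL2, ADAMTS4 and ZBED10P did not overlap. ZBED10P was at 58.82 ± 4.29 CPM in the former and 143.0 ± 4.43 CPM in the latter (SD, n = 4 each). Per kb of exon, the highest levels were those of MGAM (115.5 CPM per kb), the pseudogene ENSG00000256673 (114.2), CCL2 (89.58), the noncoding RNA BANCR (66.58), CITED4 (63.94) and CD70 (59.27 CPM per kb). MGAM alone supplied a large part of the total. The genes summed to 5707 to 5958 CPM in the A101D libraries, and to 4384 to 4809 CPM without it.

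In MeWo the genes were near silent rather than absent. The median was 5 counts over all 8 MeWo libraries. No count was found for 15 genes, 85 had 1 to 10 counts, and 51 had more. Summed over the 151 genes the MeWo libraries held 9.788 to 16.52 CPM, the highest in replicate 2. MGAM itself had 983 MeWo counts and a mean of 3.61 CPM there, 0.29% of its A101D level, and SFRP1 had 306 counts. The lowest shares among genes with a MeWo count were those of ZBED10P, SULF1, a sulfatase that trims heparan sulfate, and TRIM58, a ubiquitin ligase of red cell maturation, with 1 count each (exact Poisson 95% interval 0.0253 to 5.57 counts). These intervals cover counting error only.

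**Figure D1:**
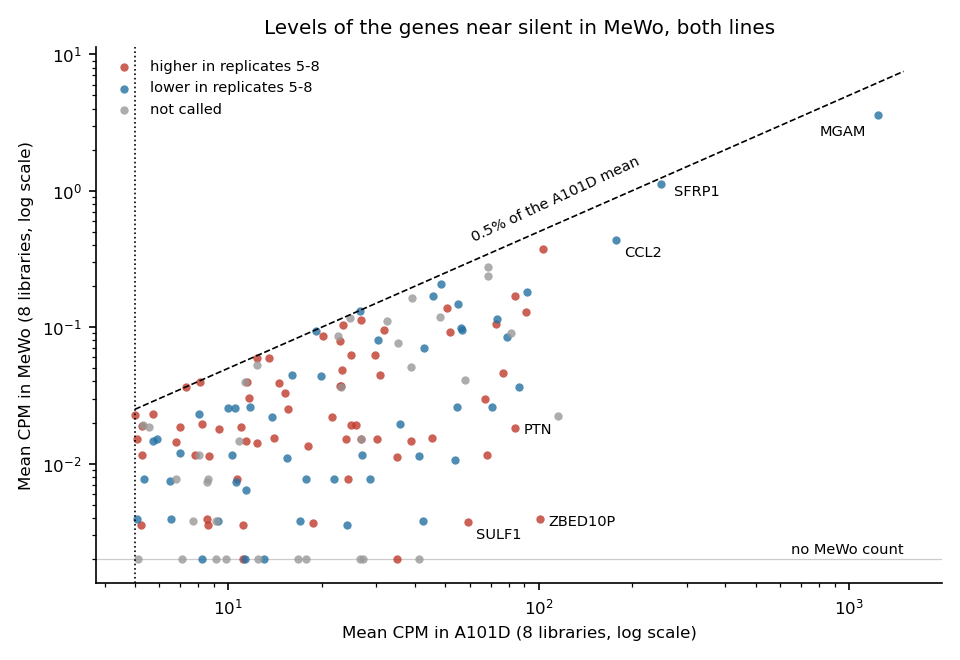
Mean CPM of each of the 151 genes in A101D (x axis) and MeWo (y axis), both on log scales and over 8 libraries, coloured by the call between A101D replicates 1 to 4 and 5 to 8. The dashed line is the rule's ceiling of 0.5%, the dotted line its floor of 5 CPM, and the 15 genes with no MeWo count are drawn on the lowest line.

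The genes with no MeWo count were of several kinds. The highest in A101D was RNASE1, a secreted ribonuclease, at 41.03 ± 2.85 CPM, which is 3742 times the level that 3 counts over the MeWo libraries would give. Next were ZFP57, a zinc finger protein that maintains imprinted methylation, the antisense gene ENSG00000273388 (27.13 CPM), the noncoding RNA PURPL (26.49 CPM) and CLEC2L (17.85 CPM), a lectin-like gene. The others were ALPK2, MOG, TBX20, DSCR8, MIR548XHG, LINC02109, LINC02327, ENSG00000264067, ENSG00000264334 and ENSG00000285822. Without MeWo replicate 2, 32 of the 151 genes had no MeWo count, since 17 had theirs only in that library.

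The genes closest to the limits show how graded the choice was. Just inside the ceiling were TEK (0.499%), H3C12 (0.493%) and GRAP2 (0.490%), and just outside it TPBG (0.517%), PAPPA (0.533%) and TM4SF18 (0.534%). At the floor, SCAND3 (5.002 CPM), LINC02452 (5.084 CPM) and ENSG00000121388 (5.096 CPM) were inside. ENSG00000260289 (4.938 CPM), TEX37 (4.879 CPM) and ACKR1 (4.856 CPM) were outside. For 17 of the 151 genes the mean of 1 set of 4 A101D libraries lay under the floor, in replicates 1 to 4 for 12 of them and in 5 to 8 for 5. Such genes near the floor had to differ between the sets to be taken.

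Noncoding RNAs and pseudogenes took a larger share of these genes than of the genes expressed in A101D. By GENCODE v29 biotype, noncoding RNAs were 28 of the 151 (18.5%) and 3.84% of the genes at the floor. Pseudogenes were 11 (7.28%), against 1.44%, and protein-coding genes 112 (74.2%), against 94.3%. Of the 27 genes in the noncoding class, 8 had no MeWo count. Genes in a list of ion channels made by symbol prefix were 7 of the 151 (4.64%), against 0.488% of the genes at the floor. The rule's use of a low MeWo level bears on each of these shares, and none was tested.

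A promoter window of 300 bases, from 250 before to 50 after the start, was found in the RefSeq table (GRCh38.p14) for 90 of the 151 genes. The first window listed for a symbol was used. Some lay far inside the GENCODE v29 gene, such as that of SDK1 (chr7:4129435-4129734, in a plus-strand gene at chr7:3301448-4269000). Which start A101D used was not examined. CpG dinucleotides, the sites of DNA methylation, were fewer in these windows than in those of other genes A101D expressed. These counts are a description and were not tested. The median was 12 CpG per window (quartiles 4 and 27), against 27 (quartiles 19 and 35) in 8791 windows of other genes at the floor and 14 in all 26246 windows. Fewer than 5 CpG were present in 24 windows (26.7%), against 4.54% of the other expressed genes, and 20 or more in 34 (37.8%), against 74.4%. Among protein-coding genes alone the medians were 14 and 27. The 38 windows of genes that rose in replicates 5 to 8 had a median of 6.5 CpG, the 31 of genes that fell 19, and the 21 of the others 11. The same split was not made for other expressed genes, so it is not shown to be particular to these.

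TEK and GRIK3 illustrate a window poor and a window rich in CpG, with 5 and 37, and neither is an extreme of the 90 windows. The 250 bases before their RefSeq starts, 5′ to 3′ on the strand of the gene with CG in capitals, lie at chr9:27108975-27109224 (TEK, plus strand) and chr1:37034516-37034765 (GRIK3, minus strand). The TEK stretch holds 5 CpG and the GRIK3 stretch 29.
TEK: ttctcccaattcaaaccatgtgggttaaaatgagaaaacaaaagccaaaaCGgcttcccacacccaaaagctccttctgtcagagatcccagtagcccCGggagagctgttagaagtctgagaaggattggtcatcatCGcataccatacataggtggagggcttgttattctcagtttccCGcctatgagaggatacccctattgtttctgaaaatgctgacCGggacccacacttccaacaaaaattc
GRIK3: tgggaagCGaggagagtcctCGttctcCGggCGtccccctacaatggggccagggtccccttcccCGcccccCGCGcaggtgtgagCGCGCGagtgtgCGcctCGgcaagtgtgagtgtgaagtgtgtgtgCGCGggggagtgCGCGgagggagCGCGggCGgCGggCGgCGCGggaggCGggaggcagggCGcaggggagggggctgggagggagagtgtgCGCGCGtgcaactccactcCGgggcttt

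Motifs were searched on both strands, and their shares are set beside those in other genes at the floor. TGAGTCA or TGACTCA, the AP-1 site, was in 3 of the 90 windows (3.33%, against 2.90%), those of F2RL2, NLRP4 and PTN. CATTCC, the TEAD site, was in 14 (15.6%, against 10.5%), CATGTG in 10 (11.1%, against 6.42%), CACGTG in 4 (4.44%, against 10.5%) and TATAAA in 7 (7.78%, against 5.20%). A match describes letters in the window, not a bound site.

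**Figure D2:**
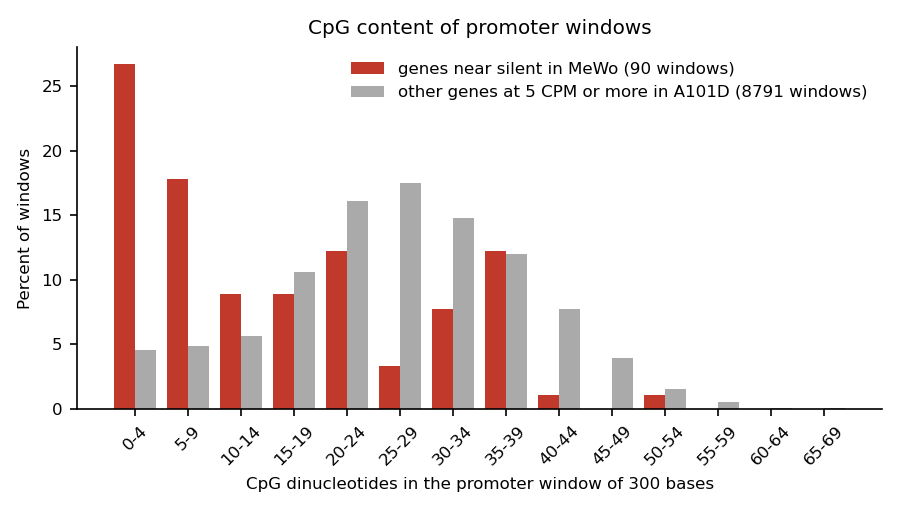
Percent of promoter windows (y axis) by the number of CpG dinucleotides in the window of 300 bases (x axis), for the genes near silent in MeWo and for other genes at 5 CPM or more in A101D. The 90 windows of the genes near silent in MeWo hold 26.7% in the lowest class, against 4.54% of the others.

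Within A101D, most of the 151 genes differed between replicates 1 to 4 and 5 to 8. The test was limma-voom across 19673 genes with a Benjamini-Hochberg threshold of 0.05, and all 151 genes passed its low-count filter. In replicates 5 to 8, 66 were higher (43.7%), against 34.8% of all tested genes, and 50 were lower (33.1%), against 35.6% of all. The other 35 were not called. For 17 of the 151 genes the mean of 1 set of A101D libraries lay under the floor, and 15 of these were called. The floor bears on the direction of those calls, and so on both shares. Among autosomal genes at the same A101D floor, 35.0% were higher and 46.9% lower. The counts by role and by gene list below are to be read beside these shares, and none was tested against them. A change of more than 2-fold was called for 12 higher genes (7.95%, against 4.29% of all and 2.46% of autosomal genes at the floor) and 8 lower ones (5.30%, against 3.11% and 4.13%). Of those 12 genes, 7 had a mean under 5 CPM in replicates 1 to 4 and passed the floor through replicates 5 to 8, so the choice of genes bears on that share. Among the 8 lower genes, H3C12 (3.91 CPM) and ENSG00000264334 (4.956 CPM) were under the floor in replicates 5 to 8, which bears on their share too. The log2 changes ran from -3.86 to 2.59 with a median of 0.08, beside 0.00 over all tested genes and -0.07 over autosomal genes at the floor. Values did not overlap between the sets for 78 genes that were higher (51.7%, against 38.7% of all) and 40 that were lower (26.5%, against 26.2%). These counts too include genes that passed the floor through 1 set. The split over all called genes depended on the scaling. With trimmed-mean factors 49.4% of the called genes were higher, and with total counts only 59.8%, which also moved the median change of all genes by 0.12 on the log2 scale. With total counts only, 83 of the 151 genes were called higher and 41 lower, and none of the called genes changed direction. CPM values below are on total counts and log2 changes on the scaled counts, so a CPM ratio exceeds the log2 change by about that shift.

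The median SD of log2 CPM within replicates 1 to 4 was 0.086 and within 5 to 8 0.084. Marker sums of 4 other cell types differed between the same sets, and that of 4 fibroblast markers overlapped (9.91 to 12.2 CPM, then 9.95 to 11.5 CPM). The sum of 4 epithelial markers, led by KRT18, was 114 to 121 CPM in replicates 1 to 4 and 164 to 198 CPM in 5 to 8, while EPCAM was at 0.193 CPM. The 3 endothelial markers, led by KDR, summed to 102 to 117 CPM and then 140 to 150 CPM, with PECAM1 at 0.359 CPM. The 4 blood cell markers, mostly LYZ (mean 2.95 CPM), summed to at most 2.93 CPM and then 3.55 to 3.86 CPM. PTPRC was at 0.126 CPM, CD3E at 0.0486 CPM and CD79A at 0.135 CPM. The 4 neural markers, led by MBP, summed to 116 to 147 and 79.2 to 82.8 CPM. None of these markers was at 0 counts over the A101D libraries, and their part in the results below was not tested.

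The 3 histone genes had the largest falls of the 151 genes. Replication-dependent histone genes are switched on when cells copy their DNA, and their mRNAs end in a stem-loop in place of a poly(A) tail. H3C8 (ENSG00000273983, chr6:26269405-26271815, minus strand), which encodes histone H3, had 93.60, 87.53, 88.24 and 91.49 CPM in replicates 1 to 4. It had 6.527, 6.895, 6.336 and 7.195 CPM in replicates 5 to 8. Every library of the first set was therefore far above every library of the second, and the log2 change was -3.86 ± 0.07 (SE; limma adjusted p = 2.36e-26). H3C12 (chr6:27890382-27893106), another H3 gene, went from 50.61, 47.71, 48.74 and 49.57 CPM to 3.683, 4.038, 3.681 and 4.237 CPM. H2BC9 (chr6:26251651-26253710), an H2B gene, went from 104.8, 93.78, 93.22 and 101.7 CPM to 13.63, 12.88, 14.94 and 15.13 CPM. Their log2 changes were -3.76 ± 0.08 and -2.92 ± 0.06, the latter with a limma adjusted p of 4.51e-25. H3C12 was under the floor in replicates 5 to 8 and was taken through the first 4 libraries. All 3 fell by more than 2-fold in the test against that size. Histone genes are near-identical copies of each other, so counts of a single one may include reads of others.

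H2BC9 and H3C8 are neighbours on chromosome 6, 15.7 kb apart on opposite strands. Both carry CCAAT, the letters bound by nuclear factor Y, in several copies before the start. CCAAT was searched after the genes were known. The 250 bases before each start follow, with CCAAT and its reverse complement in capitals, at chr6:26271414-26271663 (H3C8, minus strand) and chr6:26251364-26251613 (H2BC9, plus strand).
H3C8: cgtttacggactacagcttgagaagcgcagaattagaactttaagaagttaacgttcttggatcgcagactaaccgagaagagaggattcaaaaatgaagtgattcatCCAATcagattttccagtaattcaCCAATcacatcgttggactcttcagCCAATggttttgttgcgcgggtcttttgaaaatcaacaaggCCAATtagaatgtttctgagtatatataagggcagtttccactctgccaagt
H2BC9: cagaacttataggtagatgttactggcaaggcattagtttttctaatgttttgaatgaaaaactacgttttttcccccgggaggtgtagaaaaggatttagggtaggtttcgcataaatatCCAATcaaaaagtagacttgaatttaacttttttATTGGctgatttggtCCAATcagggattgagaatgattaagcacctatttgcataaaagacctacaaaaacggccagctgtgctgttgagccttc
H3C8 held 4 matches, whose first bases lay at -142, -118, -93 and -52 from the start, and H2BC9 held 3, at -129, -95 and -80. Of the 90 windows 34 (37.8%) held at least 1 match, against 37.3% of other genes at the floor, and 6.67% held 3 or more, against 5.26%.

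**Figure D3:**
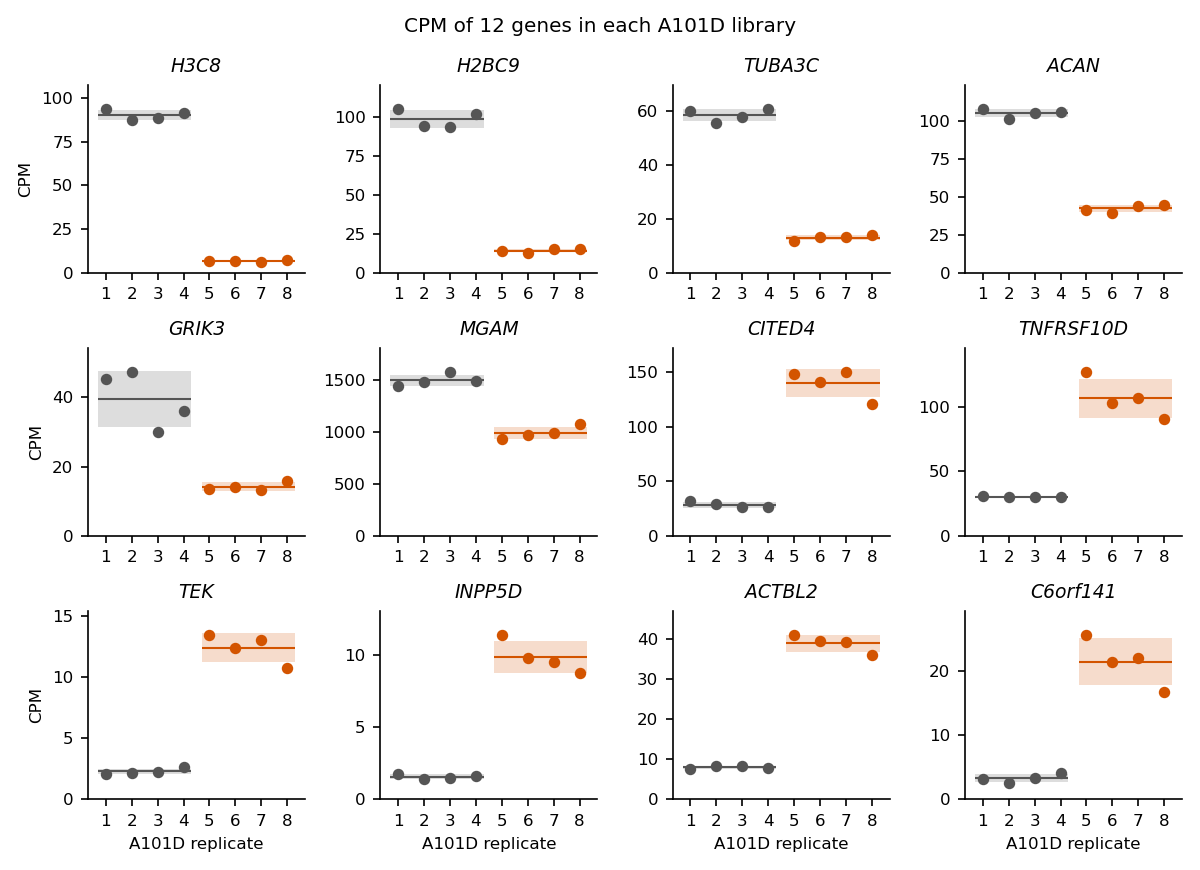
CPM (y axes, each from 0) of 12 genes in each A101D library (x axes, replicates 1 to 8), with the mean of each set of 4 as a line and 1 SD as a band. The first 6 genes were lower in replicates 5 to 8 and the last 6 higher, with no overlap between the sets.

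Of the 13 immune signalling genes 11 were higher, 1 was lower and 1 was not called, with a median log2 change of 0.80. Of all tested genes 34.8% were higher and 35.6% lower, and of autosomal genes at the floor 35.0% and 46.9%. The class was assigned by hand and was not tested against these shares. The largest rise was that of INPP5D, an inositol phosphatase of blood cells (chr2:233059967-233207903), from 1.771, 1.407, 1.487 and 1.578 CPM to 11.37, 9.807, 9.535 and 8.730 CPM. The log2 change was 2.52 ± 0.13. Its mean was under the floor in the first 4 libraries, so the rule took it through the later ones, and its rise is a description only. TNFRSF10D, a decoy receptor for the death ligand TRAIL, rose from 30.90, 29.84, 30.06 and 29.79 CPM to 126.5, 102.6, 106.3 and 90.49 CPM (log2 change 1.69 ± 0.09, limma adjusted p = 7.26e-09). The first set was tight and the second spread over a wider range, without overlap.

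Adaptors and receptors of immune cells moved with them. GRAP2, an adaptor of the T cell receptor, also under the floor in the first set, went from a mean of 4.821 ± 0.451 CPM to 11.42 ± 0.651 CPM (SD, n = 4 each). LCP2, which binds GRAP2 in T cells, rose by 0.29 ± 0.05 on the log2 scale, from 18.53 to 24.60 CPM. The interferon-inducible TRIM22 rose by 1.09 on the log2 scale, the scavenger receptor CD163L1 by 0.95, TNFRSF11B (osteoprotegerin) by 0.86, CD1D, which presents lipid antigens, by 0.80, and the complement component C3 by 0.46. CD70, the ligand of CD27, had 80.62, 76.24, 76.23 and 77.34 CPM in replicates 1 to 4 and 100.4, 106.0, 105.4 and 104.2 CPM in 5 to 8 (log2 change 0.31 ± 0.04, limma adjusted p = 4.05e-08). CD200 rose by 0.22 on the log2 scale. BST2 (tetherin), another interferon-inducible gene, had a log2 change of 0.08 (limma adjusted p = 0.135), and was called higher with total counts only (0.20, limma adjusted p = 0.000709).

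CCL2 was the exception in that class. It had 214.1, 198.6, 243.4 and 217.9 CPM in replicates 1 to 4 and 128.1, 127.6, 140.2 and 153.3 CPM in 5 to 8, so the sets did not overlap and it fell by 0.79 ± 0.07 on the log2 scale (limma adjusted p = 3.68e-06). Of the 93 tested genes in a list of cytokines, chemokines and growth factors, 49 were higher and 17 lower, with a median log2 change of 0.34. CCL2 was the only one of the 151 genes in that list, and its direction was that of the 17. The blood cell marker sum given above, mostly LYZ (mean 2.95 CPM), was also higher in replicates 5 to 8, and CD45 itself (PTPRC) was at 0.126 CPM.

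Receptors, channels and transporters went both ways: 12 of 22 were higher, 6 lower and 4 not called, with a median log2 change of 0.33. TEK and SLC5A12, which passed the floor only through replicates 5 to 8, are among the 12, so the rule bears on this count. Autosomal genes at the floor were 35.0% higher and 46.9% lower. TEK, the angiopoietin receptor of endothelial cells (chr9:27109141-27230175), had 2.079, 2.155, 2.214 and 2.601 CPM in replicates 1 to 4. It had 13.41, 12.36, 13.06 and 10.75 CPM in 5 to 8, a log2 change of 2.33 ± 0.12. It too was under the floor in the first set and was taken through the later one, so this separation is partly fixed by the rule. Among G protein-coupled receptors, CNR1, the cannabinoid receptor of neurons, rose from 19.25 ± 0.411 to 42.40 ± 2.31 CPM (SD, n = 4 each; log2 change 1.02 ± 0.05). F2RL2, a thrombin receptor, rose by 0.81 on the log2 scale, MRGPRX3, a receptor of the MAS-related family, by 0.64, the thromboxane receptor TBXA2R by 0.61, and the histamine receptor HRH2 by 0.28. Apart from F2RL2, these receptors were grouped by hand after their values were seen. The list of G protein-coupled receptors held only F2RL2 of the 151, and of its 92 tested genes 37 were higher and 27 lower.

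The 7 genes in the list of ion channels, which was made by symbol prefix, split by member. RYR2, a calcium release channel outside that list, rose by 0.37 on the log2 scale. GRIK3, a kainate-type glutamate receptor subunit (chr1:36795527-37034129), fell from 45.25, 47.29, 29.88 and 36.19 CPM to 13.41, 14.17, 13.37 and 15.98 CPM. Its first set was the more scattered, and the log2 change was -1.58 ± 0.18 (limma adjusted p = 0.000169). GRIN2B, an NMDA-type subunit, fell by 0.34 on the log2 scale and KCNK5, a background potassium channel, by 0.60. CACNA2D3, an auxiliary calcium channel subunit, rose by 0.92 and KCNH5, a voltage-gated potassium channel, by 1.09. TRPM8, the channel opened by cold and menthol, had 65.17 to 70.68 CPM in replicates 1 to 4 and 69.45 to 72.66 CPM in 5 to 8 (log2 change -0.05, limma adjusted p = 0.287), and ANO2, a calcium-activated chloride channel, had a log2 change of -0.18 (limma adjusted p = 0.0651). Over the whole list of ion channels, 54 of 134 tested genes were higher and 38 lower.

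Among transporters, SLC14A1, a urea transporter, had 52.05, 56.24, 65.23 and 56.47 CPM in replicates 1 to 4 and 89.18, 82.19, 85.87 and 94.78 CPM in 5 to 8. It rose by 0.51 ± 0.06 on the log2 scale without overlap (limma adjusted p = 2.47e-07). SLC5A12, a sodium-coupled lactate transporter, rose by 1.24 on the log2 scale, and SLC18A1, which loads monoamines into vesicles, fell by 0.55. SLC5A12 had a mean of 2.954 CPM in replicates 1 to 4, under the floor. It was taken through the later libraries, so its rise is partly fixed by the rule. STRA6, the receptor for retinol uptake, rose by 0.80, and LRP2 (megalin), an endocytic receptor, fell by 0.42. Of 279 tested solute carriers, 100 were higher and 117 lower.

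Secreted and matrix genes included a protease and its substrate that went opposite ways. ACAN, aggrecan, the large proteoglycan of cartilage (chr15:88803442-88875354), had 107.7, 101.3, 105.4 and 105.7 CPM in replicates 1 to 4 and 41.45, 39.53, 43.63 and 44.50 CPM in 5 to 8 (log2 change -1.43 ± 0.04, limma adjusted p = 1.81e-21). ADAMTS4, an aggrecanase, had 76.95, 73.19, 72.29 and 75.76 CPM, then 149.8, 135.3, 132.9 and 111.7 CPM (log2 change 0.70 ± 0.07, limma adjusted p = 3.36e-07). Neither gene overlapped between the sets. In the list of proteases, inhibitors and matrix genes that held ADAMTS4, 38 of 96 tested genes were higher and 38 lower. SFRP1 had 245.4 to 254.9 CPM in replicates 1 to 4 and 234.2 to 258.5 CPM in 5 to 8, which overlapped, with a log2 change of -0.14 that was called with the scaled counts (limma adjusted p = 0.000823) and not with total counts only.

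Of the 16 genes in that class 8 were higher and 4 lower, and with total counts only 11 and 3. With the scaled counts, autosomal genes at the floor were 35.0% higher and 46.9% lower. The proprotein convertases PCSK5 and PCSK2, which cleave precursors of secreted proteins, fell by 0.90 and 0.57 on the log2 scale. PTN (pleiotrophin), a heparin-binding growth factor, rose by 0.15, and SULF1 by 0.14. MUC15, a membrane mucin, rose by 0.29, ACP3, an acid phosphatase of prostate secretion, by 0.41, and THSD4, a protein of microfibrils, by 0.49. MGP, an inhibitor of calcification, and RNASE1 had log2 changes of -0.07 (limma adjusted p = 0.132) and 0.02 (limma adjusted p = 0.680), and RNASE1 was called higher with total counts only (0.14, limma adjusted p = 0.0109).

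Among genes of adhesion and nerve contact, 5 of 12 fell and 3 rose, and with total counts only 5 fell and 6 rose. On the scaled counts 46.9% of autosomal genes at the floor fell and 35.0% rose, so the share that fell was near theirs. PRIMA1, which anchors acetylcholinesterase to nerve cell membranes, fell from 15.73, 16.07, 14.39 and 14.62 CPM to 5.331, 5.274, 4.948 and 5.801 CPM (log2 change -1.63 ± 0.08, limma adjusted p = 1.77e-16). PDPN (podoplanin) fell by 0.81 on the log2 scale, MOG, a protein of myelin, by 0.57, and CADM3, an adhesion molecule of neurons, by 0.30. FAT3, a giant cadherin, fell by 0.47, with 1 library of the second set (93.19 CPM in replicate 8) well above the other 3 (75.05 to 77.88 CPM) and below all of the first (100.4 to 107.5 CPM). CNTNAP3, a contactin-associated protein, rose by 1.10 ± 0.07 on the log2 scale, from 6.911 to 16.07 CPM, and the guidance cue SEMA3E by 0.20. Of 124 tested axon guidance and synapse genes, 58 were higher and 26 lower. CNTNAP3 has near-identical copies, which makes its counts uncertain.

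Of the 11 enzymes 5 fell and 2 rose, and with total counts only 5 fell and 4 rose. The share that fell on the scaled counts was near the 46.9% of autosomal genes at the floor, of which 35.0% rose. MGAM had 1446, 1477, 1574 and 1491 CPM in replicates 1 to 4 and 932.0, 968.9, 985.5 and 1072 CPM in 5 to 8. The sets lay well apart, and the log2 change was -0.71 ± 0.04 (limma adjusted p = 1.54e-12). INMT, a methyltransferase that uses S-adenosylmethionine to methylate indolamines, fell by 0.90 ± 0.06 on the log2 scale, from 28.85, 29.99, 34.00 and 29.43 CPM to 17.71, 16.34, 17.05 and 19.79 CPM. ST8SIA5, a sialyltransferase, fell by 0.75, GALNT5, which starts mucin-type glycans, by 0.47, and ELOVL2, which lengthens polyunsaturated fatty acids, by 0.40. ACSS3, a mitochondrial acyl-CoA synthetase, was the one enzyme that rose by more than 2-fold, from 12.01, 12.18, 10.90 and 11.52 CPM to 34.18, 35.88, 32.56 and 33.73 CPM (log2 change 1.43 ± 0.06, limma adjusted p = 2.65e-18). PLA1A had 101.1 to 123.1 CPM and 113.9 to 124.0 CPM in the sets (log2 change -0.04, limma adjusted p = 0.458), and ALDH2, a mitochondrial aldehyde dehydrogenase, was not called either, except with total counts only (log2 change 0.17, limma adjusted p = 0.00525).

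Of the 14 regulators of transcription, chromatin or RNA 7 were higher and 5 lower, and with total counts only 7 and 2. With the scaled counts, autosomal genes at the floor were 35.0% higher and 46.9% lower. CITED4, a coactivator that binds the acetyltransferases CBP and p300, had 31.57, 28.98, 26.77 and 25.99 CPM in replicates 1 to 4 and 148.1, 140.9, 149.7 and 121.1 CPM in 5 to 8 (log2 change 2.18 ± 0.07, limma adjusted p = 2.01e-12). ZBED10P, listed as protein coding in GENCODE v29 and derived from a transposase gene, rose from 64.34, 58.13, 53.89 and 58.93 CPM to 148.1, 143.0, 143.7 and 137.3 CPM (log2 change 1.16 ± 0.04, limma adjusted p = 1.89e-19). No library of either gene lay within the range of the other set. SCAND3, also related to transposases, rose by 1.86 on the log2 scale from a level under the floor (2.015 CPM), and was taken through the later libraries. ZFP57 rose from 23.85 ± 0.816 to 46.15 ± 2.51 CPM (SD, n = 4 each; log2 change 0.84 ± 0.05).

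IGF2BP1, an mRNA-binding protein of fetal tissues and tumours, fell by 0.37 ± 0.04 on the log2 scale, from 91.42 to 95.49 CPM in replicates 1 to 4 to 77.58 to 80.26 CPM in 5 to 8. ZEB1, a repressor that drives epithelial-mesenchymal transition and marks dedifferentiated melanoma, rose by 0.37 ± 0.09 (limma adjusted p = 0.000779). The T-box genes TBX18 and TBX20, which act in heart and limb development, had log2 changes of -0.14 (limma adjusted p = 0.107) and -0.22 (limma adjusted p = 0.0608). In the list of developmental transcription factors, which held TBX18, 17 of 49 tested genes were higher and 20 lower. Of the 7 zinc finger genes by symbol, ZFP57, ZFP28, ZNF812P and ZNF280A were higher and ZNF556, ZNF215 and ZNF560 lower, the last pair not with total counts only (limma adjusted p = 0.0598 and 0.137). In that whole list 313 of 534 tested genes were higher and 104 lower. ZFP28 had a mean of 3.439 CPM in replicates 1 to 4, under the floor, and was taken through the later libraries. In the list of the undifferentiated and neural-crest-like melanoma state, which held only ZEB1 of the 151, 21 of 36 were higher and 13 lower.

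Of the 8 germ cell genes 2 were higher, 2 lower and 4 not called, and with total counts only 4 were higher and 1 lower. Scaled counts gave 35.0% higher and 46.9% lower among autosomal genes at the floor. TUBA3C, a testis alpha-tubulin (chr13:19173770-19181852), fell from 60.01, 55.56, 57.80 and 60.59 CPM to 11.63, 13.16, 13.34 and 13.91 CPM, with no overlap (log2 change -2.28 ± 0.06, limma adjusted p = 4.65e-23). It has near-identical copies in the genome, so part of its counts may belong to them. TDRD9, a helicase that silences transposons in the male germ line, had 78.20 to 81.17 CPM and 80.54 to 88.21 CPM (log2 change -0.06, limma adjusted p = 0.176). BAGE2, a tumour antigen gene of a multicopy family, rose by 0.28 on the log2 scale, and NLRP4 by 0.36. NLRP4 had a mean of 4.412 CPM in replicates 1 to 4, under the floor, and was taken through the later libraries. SPATA18, which acts in mitochondrial quality control, overlapped between the sets, with a log2 change of -0.14 (limma adjusted p = 0.00411) that was not called with total counts only (-0.02, limma adjusted p = 0.605).

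Other protein-coding genes held 4 of the 12 rises of more than 2-fold. C6orf141 rose from 3.183, 2.514, 3.286 and 4.121 CPM to 25.62, 21.54, 22.15 and 16.81 CPM, the largest rise of the 151 genes (log2 change 2.59 ± 0.19). SPRR2D, a protein of the cornified envelope of keratinocytes, rose by 2.35 ± 0.16 on the log2 scale from a mean of 2.060 CPM, in the same libraries in which the epithelial marker sums were higher. ACTBL2, an actin-like gene, rose from 7.495, 8.202, 8.163 and 7.804 CPM to 40.87, 39.56, 39.26 and 35.94 CPM (log2 change 2.18 ± 0.07, limma adjusted p = 2.64e-21). ALPK2, a kinase studied in heart development, rose by 1.80 ± 0.09 from 4.756 to 17.52 CPM. In all of these the sets were separate. PALMD, a membrane-associated protein, rose by 0.52 and the neuronal motor KIF5A by 0.82, while TRIM58 fell by 0.42. C6orf141, SPRR2D and ALPK2 had means under the floor in replicates 1 to 4 and were taken through the later libraries, so their separation is partly fixed by the rule.

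**Figure D4:**
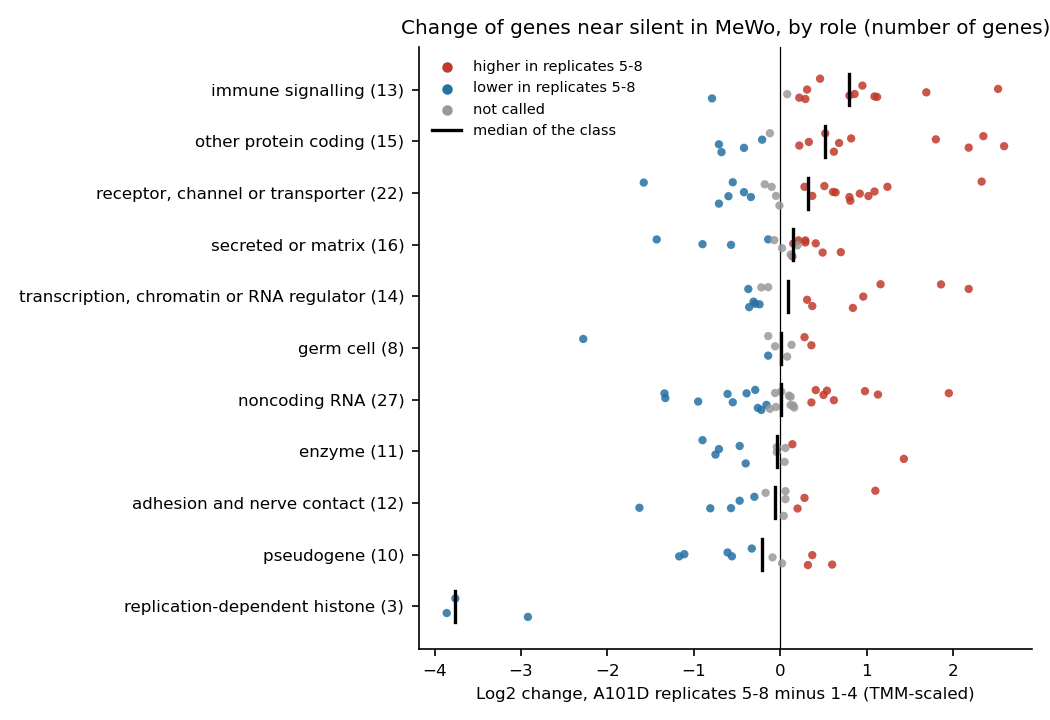
Log2 change between A101D replicates 1 to 4 and 5 to 8 (x axis, TMM-scaled) of each of the 151 genes, by role (y axis, with the number of genes), coloured by call, with the median of each class as a bar. The 3 histone genes sit at the far left, 11 of the 13 immune signalling genes were called higher, and the medians of the enzyme and adhesion classes turn positive with total counts only. INPP5D and GRAP2, among those 11, passed the floor only through replicates 5 to 8. Of all tested genes 34.8% were called higher and 35.6% lower.

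Of the 27 noncoding RNAs 8 were higher and 10 lower, and 14 and 7 with total counts only. Scaled counts gave 35.0% higher and 46.9% lower among autosomal genes at the floor. LINC01029 (chr18:77971294-77993722) fell from 57.75, 56.04, 59.35 and 57.76 CPM to 20.26, 24.06, 25.53 and 29.69 CPM (log2 change -1.34 ± 0.08, limma adjusted p = 3.49e-09). ENSG00000264334 lies within it on the same strand and fell by 1.33 on the log2 scale. It was under the floor in replicates 5 to 8 (mean 4.956 CPM) and was taken through the first 4 libraries. LINC02452 rose by 1.95 ± 0.14 from a mean of 1.935 CPM. That mean was under the floor, so LINC02452 was taken through the later libraries and its rise is partly fixed by the rule. BANCR, a noncoding RNA first described in melanoma with mutant BRAF, had 50.43 to 64.21 CPM and 52.05 to 57.76 CPM, which overlapped (log2 change -0.16, limma adjusted p = 0.0311), and with total counts only it was not called (-0.04, limma adjusted p = 0.543). PURPL, a noncoding RNA induced by p53, had 22.77 to 27.30 CPM and 27.25 to 31.95 CPM (log2 change 0.10, limma adjusted p = 0.111), and was called higher with total counts only (0.22, limma adjusted p = 0.00254). In the list of names of noncoding and antisense genes, 587 of 1610 tested genes were higher and 351 lower. Among the 10 pseudogenes 3 were higher and 5 lower, and reads shared with their parent genes make each uncertain.

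Some of the 151 genes lie next to each other. In 10 pairs the genes were adjacent or overlapping among annotated genes, involving 19 of the 151. The kit keeps strand, but the strand setting of the counting is not given in the sources used here, so reads of overlapping genes could have gone to either. H2BC9 with H3C8, TUBA3C with the pseudogene ENSG00000121388 (3.37 kb apart, log2 changes -2.28 and -1.17), and LINC01029 with ENSG00000264334 fell together. ENSG00000121388 (mean 3.295 CPM) and ENSG00000264334 (4.956 CPM) were under the floor in replicates 5 to 8. Both were taken through the first 4 libraries, so their falls are partly fixed by the rule. CACNA2D3 with ESRG, which lies inside it on the opposite strand (0.92 and 0.50), MUC15 with SLC5A12 (0.29 and 1.24), and FRG1FP with ENSG00000279973 (0.32 and 0.36) rose together. SLC5A12 was under the floor in replicates 1 to 4, so its rise is partly fixed by the rule. Antisense to MYH13, a myosin heavy chain of eye muscle that fell by 0.21, ENSG00000264067 fell by 0.22, and ENSG00000273388 was not called (log2 change -0.05). With total counts only neither MYH13 nor ENSG00000264067 was called (limma adjusted p = 0.168 and 0.133). The last pairs were called in opposite directions. MOG and ZFP57 end 0.02 kb from each other on opposite strands, and MOG fell by 0.57 while ZFP57 rose by 0.84. ZBED10P lies within LRRC61 on the same strand, and rose by 1.16 while LRRC61 fell by 0.71.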

How the data were processed

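A strand-keeping kit was used for the 8 A101D and 8 MeWo libraries of total RNA, according to the labels. Trimmomatic 0.39-1, STAR 2.7.1a, featureCounts 2.0.0 and GRCh38 are named in the submitters' processing notes. Each cell of the tables that the authors deposited joins a gene identifier to a raw read count, which is a whole number. Both parts were separated, and all columns were matched to libraries by line and replicate number in their headers. Symbols were found for 60357 identifiers and GENCODE v29 (GRCh38) positions for 58503, and 3 genes past the limits without a position and 32 on X, Y or mitochondrial DNA were not taken.

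The members of the set, the role classes and the gene lists were chosen with earlier results of these data known. A count-model test was planned for columns that pass as counts. The joined cells did not pass, so the stated replacement was used on the A101D libraries: voom precision weights and robust moderation from limma 3.58.1 (R 4.3.3). TMM factors used trims of 30% and 5%. Genes needed 0.296 CPM (10 counts at the median depth) in 4 libraries and 15 counts in all. Benjamini-Hochberg adjustment covered 19673 genes, with a threshold of 0.05, and changes over 2-fold were tested with treat. The p-values set the difference between the sets of libraries against the spread within each set, and that difference may be technical. On counts simulated for this comparison (19625 genes tested) the fit recovered 100% of 2-fold and 100% of 4-fold changes. Only 100 well-counted genes were changed at each size, in random directions. Most genes were called in the data, so the simulation does not bear on how those calls divide by direction.

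Named genes are the 10 highest, the 6 largest rises and falls without overlap, the 5 highest with no MeWo count, those nearest the limits, up to 4 per list, and neighbours that both belong to the set. Others were named after their values were seen, to describe the classes. Python 3.11.15 and pandas 2.3.3 did the rest. Total counts of 28910881 to 38961862 per library set the precision.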

Additional observations from a re-analysis of the deposited data

Results flagged for a closer look

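A single library lay far from the others of its group in 8 of 178 groups checked (named genes in each set of 4 A101D libraries, and MeWo totals), where chance gives about 8.9. In A101D replicates 5 to 8, FAT3 was 93.19 CPM in replicate 8, against 75.05 to 77.88 CPM in the other 3. Replicate 5 stood apart for 3 genes: LINC00221 at 24.62 CPM (others 23.32 to 23.43), PURPL at 31.95 CPM (others 27.25 to 27.55) and GRIN2B at 15.54 CPM (others 14.51 to 14.62). In replicates 1 to 4, replicate 3 stood apart for IGF2BP1 at 91.42 CPM (others 94.85 to 95.49) and GRAP2 at 4.151 CPM (others 4.969 to 5.108).

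MeWo replicate 2 had a count for 105 of the 151 genes, against 62 to 73 in the other MeWo libraries. It also had a count for more genes over the whole tables (34471, against 30066 to 31433). Without MGAM the genes summed to 12.62 CPM there, against 6.146 to 7.934 CPM in the others. It held 539 of the 3113 MeWo counts of these genes.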

How the results depend on the processing

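The rule took 95 genes with a MeWo ceiling of 0.2% and 224 with 1%, 221 with a floor of 2 CPM and 112 with 10 CPM, 147 with TMM-scaled libraries and 154 without MeWo replicate 2. Against a 2-fold change (treat), 12 of the 151 genes were higher and 8 lower, and 843 and 611 of all tested genes. That test asks for a larger change by construction. Leaving out 1 A101D library at a time gave 64 to 67 of the genes higher and 49 to 53 lower, and 6027 to 6626 higher and 6627 to 6944 lower of all genes. Upper-quartile or median-of-ratios scaling, total counts alone, other low-count filters, a threshold of 0.01, limma-trend and a fit of all 16 libraries kept every one of these counts within 1.5 times. The number of genes called the same way as in the main result was 107 with total counts only and 112 at the threshold of 0.01. For 58 named genes, 943 of 986 recomputed log2 changes kept their call, 37 lost it, 6 gained it and 0 changed direction while called. With total counts only, SFRP1, MYH13 and ENSG00000264067 lost their calls, and RNASE1, PURPL, LINC01579 and CLEC2L gained one. Without A101D replicate 4, PURPL and TBX18 gained a call. The quasi-likelihood and Wald count-model tests were not run, because the cells as deposited did not pass as counts. No paired analysis was possible because the comparison is between replicate numbers of 1 line. Genes with few MeWo counts have levels there that counting error limits.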

Other observations

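The 151 genes were spread unevenly over the chromosomes, as shares of the autosomal genes at the A101D floor. The highest shares were on chromosome 21 (6 of 124 genes, 4.84%) and chromosome 18 (7 of 168, 4.17%), and the lowest on chromosome 16 (1 of 487, 0.205%) and chromosome 10 (1 of 421, 0.238%), beside 1.36% over all autosomes. On chromosome 18 they were SLC14A1, ST8SIA5, LINC01029, ENSG00000264334, LINC02864, ALPK2 and ANKRD29, of which SLC14A1, LINC02864, ALPK2 and ANKRD29 rose and the other 3 fell. On chromosome 21 they were BAGE2, DSCR8, MIR548XHG, LINC00189, ENSG00000270533 and ENSG00000275464, and copies of such sequences elsewhere make BAGE2, ENSG00000270533 and ENSG00000275464 uncertain. ZEB1 was the one gene on chromosome 10, and SHISA9 the one on chromosome 16. The shares were not tested, and the copy number of these chromosomes was not analysed here.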
